A study of Homo sapiens with 10 samples.

Results

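SOX10, FOXD3, NGFR, PAX3, PAX7, TFAP2B, SNAI2 and ERBB3, 8 markers of the neural crest and of Schwann cell precursors, were followed through a neural differentiation of H9, a widely used human embryonic stem cell (hESC) line. They were taken by gene symbol, and all 8 were found among the 42335 genes of the deposited table. The study's title places it around SOX1-OT V1, a transcript of the noncoding gene SOX1-OT, and its part in neuronal differentiation. The 10 libraries came from wild-type cells, called Ctrl, and from cells of the genotype labelled SOX1-OT V1 PAKI, called V1PAKI here. Each line gave 1 library at d0, d4, d10, d16D and d16V. What PAKI, D and V stand for is not said in the labels, nor whether V1PAKI is a single clone.

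All cells of both lines went through the same protocol, per the labels: aggregates in suspension without FGF-2, a neural medium from day 4 and attachment to plastic at day 7. An arm for ventral telencephalon got Sonic hedgehog and SAG, an agonist of the hedgehog pathway, from day 10. No stage had a second library of the same line, so no value below has a replicate error. FPKM, the unit of the table, counts fragments per length of transcript and per size of library, so that levels of different genes can be compared.

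The neural crest is a migratory population that arises at the border between the neural plate and the future epidermis, next to the dorsal neural tube. Border factors such as PAX3, PAX7 and the AP-2 proteins come first, FOXD3, SNAI2 and SOX10 then specify the crest, and its cells leave the epithelium to form peripheral neurons, glia, pigment cells and part of the facial skeleton. Schwann cell precursors, the crest cells that travel along nerves, keep SOX10 and depend on neuregulin signals read by ERBB3. Several of these genes are not limited to the crest: FOXD3 is also a factor of pluripotent stem cells, ERBB3 is a receptor of many epithelia, PAX3 and PAX7 mark the dorsal neural tube and muscle progenitors, and SNAI2 is active in mesenchyme.

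FPKM summed to between 200509 and 256270 per library, and between 10193 and 15177 genes were listed at 0. Only FPKM were given, so depth per library is unknown and no counting interval could be given. SOX1-OT itself did not exceed 0.0513 FPKM in either line up to d10, and Ctrl then had 1.87 FPKM at d16D and 3.51 at d16V, where V1PAKI had 0.212 and 1.22; the table does not separate its V1 transcript. Markers of the labelled cell types were present: all 5 of the stem cell list (POU5F1, NANOG, LIN28A, DNMT3B and TDGF1) fell from d0 to the d16 libraries, and all 6 of the neural progenitor list (PAX6, SOX1, SOX2, NES, CDH2 and LHX2) rose. In bulk RNA, fewer cells of a type and less RNA per cell cannot be told apart.

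PAX3 and PAX7 are paralogues whose levels moved together here, and FOXD3 is the member that fell most over the course, so the 250 bases upstream of these 3 genes are shown. Sequences are RefSeq's, on build GRCh38.p14, 5′ to 3′ on the strand of the gene. Windows were taken for 4 of the 8 members, as SOX10, NGFR and ERBB3 had no entry and SNAI2 was left out. The PAX3 window is chr2:222298999-222299248 on the minus strand, the PAX7 window chr1:18630596-18630845 on the plus strand and the FOXD3 window chr1:63322317-63322566 on the plus strand. Capitals mark motif matches.
PAX3: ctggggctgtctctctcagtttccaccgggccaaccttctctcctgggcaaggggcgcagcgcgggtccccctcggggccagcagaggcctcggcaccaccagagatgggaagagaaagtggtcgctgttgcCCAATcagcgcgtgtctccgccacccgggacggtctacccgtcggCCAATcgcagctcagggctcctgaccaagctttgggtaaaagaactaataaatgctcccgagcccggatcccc
PAX7: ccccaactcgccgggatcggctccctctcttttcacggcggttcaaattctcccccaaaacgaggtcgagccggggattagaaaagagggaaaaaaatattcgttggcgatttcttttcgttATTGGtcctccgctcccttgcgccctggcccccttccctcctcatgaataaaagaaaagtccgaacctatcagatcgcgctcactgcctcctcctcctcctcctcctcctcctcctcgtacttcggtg
FOXD3: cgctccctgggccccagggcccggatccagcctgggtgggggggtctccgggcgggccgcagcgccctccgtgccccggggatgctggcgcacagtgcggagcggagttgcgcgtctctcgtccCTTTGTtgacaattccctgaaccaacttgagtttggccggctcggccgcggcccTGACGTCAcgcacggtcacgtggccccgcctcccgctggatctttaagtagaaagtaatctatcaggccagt
Both strands were searched for the AP-2 palindrome GCCNNNGGC, the E-box CAGGTG of Snail factors and the motif ACAANG of SOX factors. The CCAAT box and the cyclic AMP response element, TGACGTCA, were added after the sequences were seen. PAX3 held 2 CCAAT boxes, PAX7 held 1 on the opposite strand, and FOXD3 held 1 SOX motif, on the opposite strand, and 1 cyclic AMP response element. Of 34788 distinct windows of 250 bases in the same table, 32.0% held a CCAAT box, 30.9% the SOX motif, 1.64% the response element, 19.8% the AP-2 palindrome and 17.5% the E-box. The capitals are matches of letters only and are not shown to be bound.

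**Figure D1:**
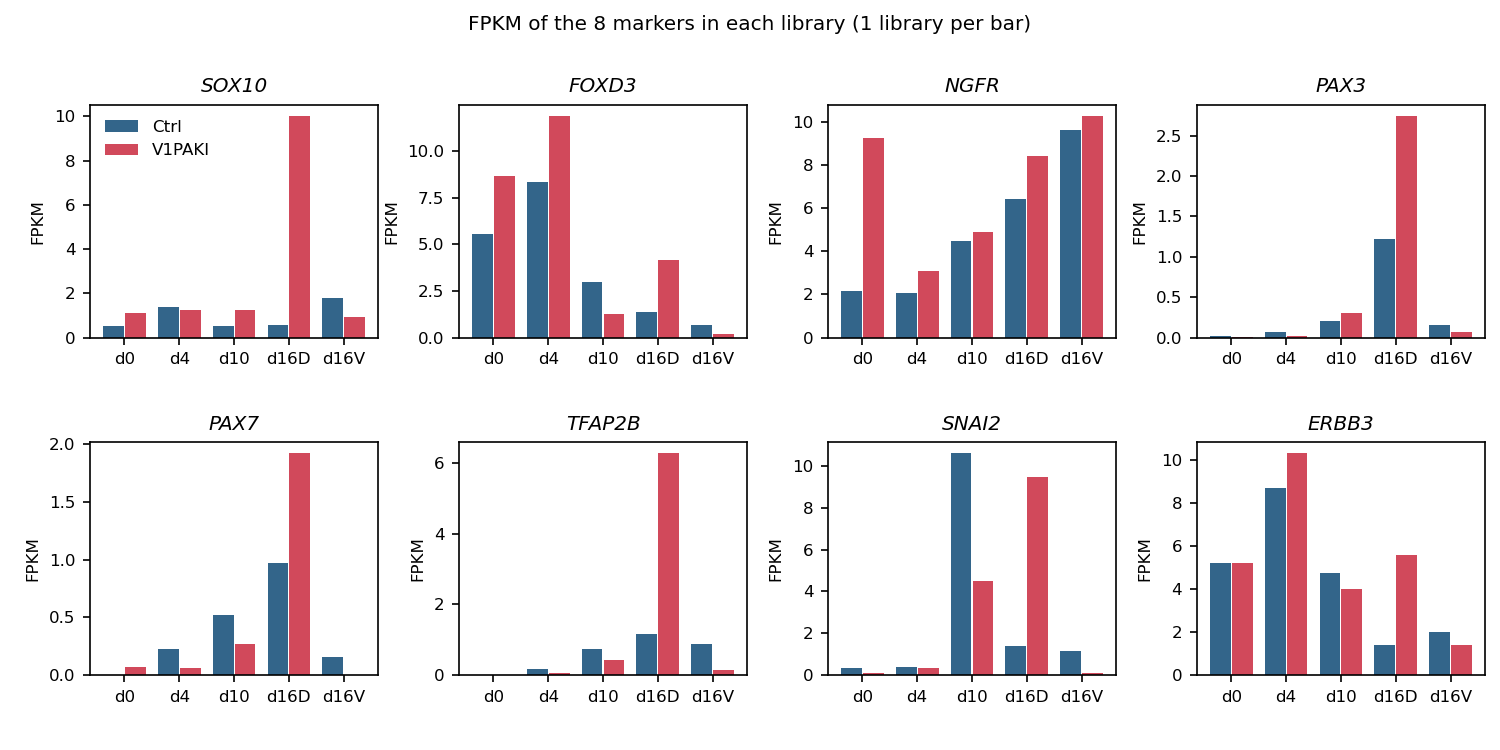
FPKM (y axis, a separate scale for each gene) of the 8 markers at the 5 stages (x axis), 1 bar per library, Ctrl in blue and V1PAKI in red. SOX10, TFAP2B, PAX3 and PAX7 have their tallest bar in V1PAKI at d16D, FOXD3 and ERBB3 at d4, NGFR at d16V and SNAI2 in Ctrl at d10.

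PAX3, a paired box factor of the neural plate border and dorsal neural tube (chr2:222199888-222298996, minus strand), stood at 0.0244 FPKM at d0, 0.0691 at d4, 0.202 at d10, 1.23 at d16D and 0.160 at d16V in Ctrl. In V1PAKI it stood at 0.0109, 0.0230, 0.309, 2.74 and 0.0644 FPKM in the same order. Both lines thus had their highest PAX3 at d16D, and these were the only libraries above 1 FPKM. PAX7, its closest relative (chr1:18631006-18748866, plus strand), was listed at 0 at d0 in Ctrl and then stood at 0.223, 0.522, 0.972 and 0.156 FPKM. The V1PAKI values of PAX7 were 0.0695, 0.0627, 0.269 and 1.92 FPKM, with a listed 0 at d16V. Its highest library in each line was again d16D, and only that of V1PAKI passed 1 FPKM.

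TFAP2B encodes an AP-2 factor of the crest and its sympathetic derivatives (chr6:50818723-50847613, plus strand). It was listed at 0 at d0 in both lines. Ctrl then had 0.156 FPKM at d4, 0.735 at d10, 1.16 at d16D and 0.886 at d16V, and V1PAKI had 0.0563, 0.434, 6.27 and 0.139. The V1PAKI d16D library was 5.42-fold above Ctrl d16D, which was the next highest.

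SOX10, the factor that maintains crest cells and directs their glial and pigment fates (chr22:37970686-37987422, minus strand), was low in 9 of the 10 libraries. Ctrl had 0.528, 1.37, 0.512, 0.557 and 1.78 FPKM at d0, d4, d10, d16D and d16V. V1PAKI had 1.12, 1.26, 1.25, 10.0 and 0.933 FPKM. A single library, V1PAKI d16D, stood apart from a range of 0.512 to 1.78 FPKM. SOX10 lies wholly within POLR2F, a subunit gene of RNA polymerases on the opposite strand, and whether counting used strand is not given in the sources used here. At d16D POLR2F had 4.08 FPKM in Ctrl and V1PAKI had 4.80, against the 18.0-fold difference of SOX10.

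FOXD3, a forkhead repressor of pluripotent cells and of the early crest (chr1:63323041-63325126, plus strand), was highest before neural induction. Ctrl had 5.55, 8.36, 2.98, 1.39 and 0.659 FPKM, and V1PAKI had 8.69, 11.9, 1.28, 4.17 and 0.177. The d0 and d4 libraries of both lines lay above all 6 later ones. FOXD3-AS1, a transcript that overlaps 1401 bases of FOXD3 on the other strand, followed a like course, going in Ctrl from 15.6 FPKM at d0 to 0.634 at d16V and in V1PAKI from 39.0 to 0.283. Reads from FOXD3 and FOXD3-AS1 cannot be told apart without strand.

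SNAI2, the Snail family repressor of cadherin genes that acts when crest cells leave the epithelium (chr8:48917604-48921740, minus strand), peaked at different times in the lines. Ctrl had 0.358, 0.390, 10.6, 1.37 and 1.13 FPKM, with d10 far above the rest. V1PAKI had 0.104, 0.330, 4.51, 9.50 and 0.0964 FPKM, with its highest value at d16D. From d10 to d16D the level of Ctrl was 7.72-fold lower, while that of V1PAKI went up from 4.51 to 9.50 FPKM.

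NGFR, the low affinity neurotrophin receptor used to sort crest cells (chr17:49495293-49515017, plus strand), was above 2 FPKM in all 10 libraries. Ctrl had 2.17, 2.05, 4.46, 6.42 and 9.62 FPKM. V1PAKI had 9.25, 3.09, 4.92, 8.42 and 10.3 FPKM, so that d0 of V1PAKI was as high as the d16 libraries. ERBB3, the neuregulin receptor that signals with ERBB2 (chr12:56076799-56103505, plus strand), had 5.20, 8.68, 4.74, 1.40 and 1.98 FPKM in Ctrl. V1PAKI had 5.22, 10.3, 3.98, 5.59 and 1.41 FPKM. The lines held nearly the same ERBB3 at d0, and the gene's widest gap between them was at d16D.

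Added up, the 8 markers came to 48.6 FPKM in V1PAKI d16D, against 13.1 to 27.0 FPKM in the other 9 libraries. It was the only library with all 8 at 1 FPKM or more; the others had 2 to 6. The make-up of the sum differed as well. SOX10, the highest member in V1PAKI d16D, gave 20.6% of it there, whereas NGFR alone gave 78.5% in V1PAKI d16V and 58.8% in Ctrl d16V. FOXD3 led in Ctrl d0 and V1PAKI d4, ERBB3 in Ctrl d4 and SNAI2 in Ctrl d10.

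At d16D every one of the 8 markers was higher in V1PAKI than in Ctrl. With 1 library a line there is no test at a stage, so a gene was counted as different when the lines differed by at least 1 on the log2(FPKM + 1) scale, taking the genes that reached 1 FPKM in one line or the other. By this rule 5 of 8 markers were higher and 0 lower, where 5.50% of all 15194 genes were higher and 3.46% lower (6.35% and 2.49% with median-of-ratios scaling, 8.94% and 7.75% as TPM, 9.28% and 8.71% with a pseudocount of 0.1). SOX10 differed most, by 2.82 (18.0-fold), which put it at rank 12 from the top of the 15194 genes. SNAI2 differed by 2.14 (6.91-fold), TFAP2B by 1.75 (5.42-fold), ERBB3 by 1.45 (3.98-fold) and FOXD3 by 1.11 (2.99-fold). The other 3 stayed under the bound: PAX3 at 0.75 (2.24-fold), PAX7 at 0.57 (1.97-fold) and NGFR at 0.34 (1.31-fold). The median over the markers was 1.28, against -0.097 over all genes. PAX3 also passed as TPM (1.05) and with a pseudocount of 0.1 (1.10). All 8 stayed above Ctrl with a pseudocount of 0.1, as TPM and with median-of-ratios scaling.

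**Figure D2:**
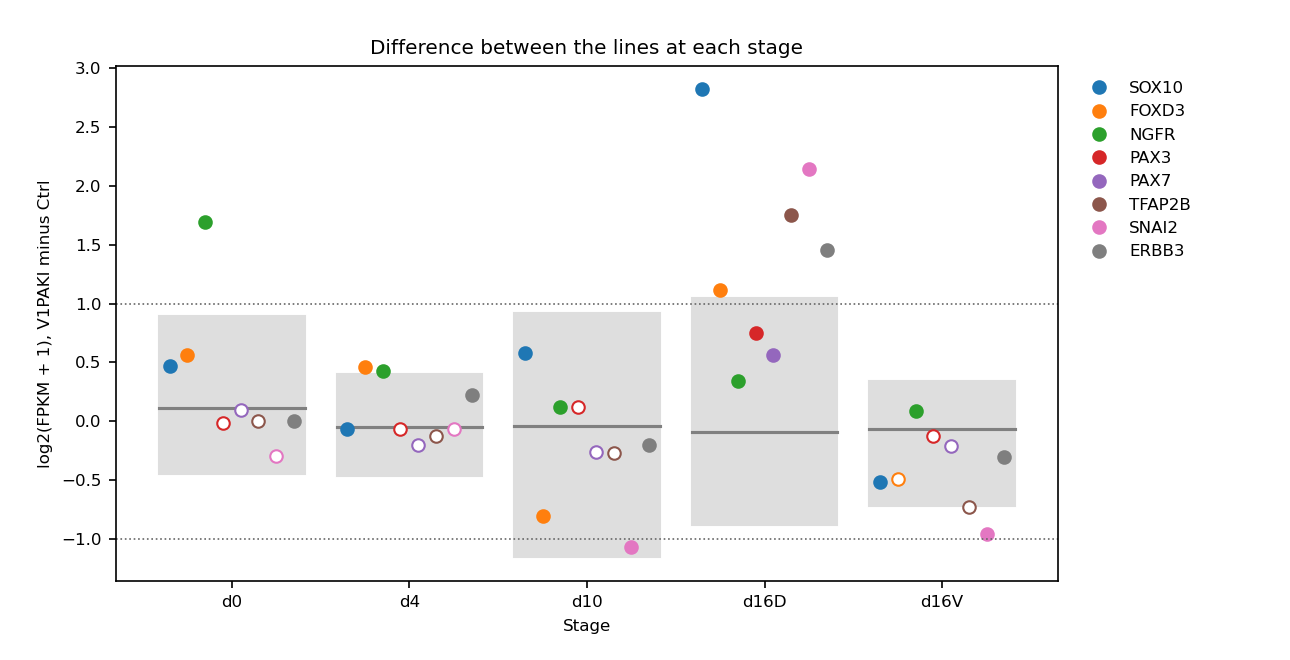
Difference between the lines (V1PAKI minus Ctrl, log2(FPKM + 1), y axis) for each marker at each stage (x axis). Filled points reached 1 FPKM in one of the lines and open points did not; grey boxes span the 5th to 95th percentile of all such genes, grey lines are their medians and dotted lines mark a difference of 1. At d16D all 8 markers lie above 0, and 5 lie above the box and the dotted line; at the other stages 1 marker at most passes a dotted line.

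At d16V 7 of the 8 markers were lower in V1PAKI. There 4 markers had 1 FPKM or more in either line and 0 of them passed the bound, beside 0.412% of 14569 genes higher and 2.49% lower. SNAI2 was closest, at 0.0964 FPKM in V1PAKI against 1.13 in Ctrl (11.7-fold lower, -0.96 on the log2 scale). TFAP2B was 6.37-fold lower in V1PAKI with both lines under 1 FPKM. SOX10 had 0.933 FPKM in V1PAKI and Ctrl had 1.78, the reverse of its order at d16D. Only NGFR, of the 8, was not lower in V1PAKI, at 10.3 against 9.62 FPKM. With a pseudocount of 0.1 or as TPM, 1 marker, SNAI2, counted as lower, beside 1.43% of genes higher and 5.73% lower with that pseudocount and 1.46% and 4.59% as TPM.

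At d10 SNAI2 was 2.35-fold lower in V1PAKI (-1.07 on the log2 scale), and it was the 1 of 5 markers counted as different. Of all 14218 genes, 3.78% were higher and 7.45% lower (10.4% and 9.71% as TPM). FOXD3 was lower too, by 0.81, while SOX10 was higher by 0.57. The count moved with the scale at this stage: a pseudocount of 0.1 gave 1 marker higher (SOX10) and 2 lower (SNAI2 and FOXD3), beside 8.64% and 13.1% of all genes.

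Before neural induction the lines differed in NGFR. At d0 it was 4.26-fold higher in V1PAKI (1.69 on the log2 scale, rank 82 of 13661 genes), the 1 of 4 markers counted as different. The background at d0 was 3.73% of genes higher and 0.820% lower (5.33% and 2.34% as TPM, 2.50% and 1.22% with median-of-ratios scaling), and the median of all genes was 0.11. FOXD3 and SOX10 were at 0.56 and 0.47, and ERBB3 at 0.0040. At d4, 0 of 4 markers passed, beside 0.797% of 13426 genes higher and 0.857% lower; FOXD3 at 0.46 and NGFR at 0.42 differed most.

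Over the 5 stages together no marker passed between the lines. This test used limma across the 15779 genes that reached 1 FPKM in 2 or more libraries, with stage and line as terms and Benjamini-Hochberg adjustment, and it took the stages as the repeats of a line. Of the 8 markers 7 entered it, since PAX7 had 1 FPKM in a single library, and 0 of 7 were called (adjusted p = 0.9998 each), where 0.0190% of all genes were called and 390 genes had an unadjusted p under 0.05. NGFR came closest, at 0.53 (SE 0.24, unadjusted p = 0.0584), being higher in V1PAKI at 5 of 5 stages. SOX10 was at 0.66 (SE 0.43) and SNAI2 at -0.05 (SE 0.43). In this mean SNAI2 was above 0 at d16D and below it at the other 4 stages, and FOXD3 was below 0 at d10 and d16V.

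The same fit was used for the stage changes, with 2 libraries at each stage, 1 of each line. Its p-values measure how far the lines depart from a common course, not the spread between repeated cultures, and both d16 libraries of a line may come from 1 culture up to day 10. From d0 to d16, with both arms pooled, FOXD3 fell by 1.85 on the log2 scale (SE 0.38, limma adjusted p = 0.0104) and PAX3 rose by 0.82 (SE 0.22, limma adjusted p = 0.0272). These 2 of 7 markers stood beside 32.4% of all genes called, 17.4% that rose and 15.1% that fell (34.8%, 24.6% and 10.3% as TPM). FOXD3 was lower in each d16 library than in the d0 library of its line, by 2.08-fold (V1PAKI d16D) to 49.2-fold (V1PAKI d16V). PAX3 was higher in each, by 5.92-fold (V1PAKI d16V) to 252-fold (V1PAKI d16D), from levels of 0.0109 to 0.0244 FPKM. It reached 1 FPKM only at d16D of Ctrl and V1PAKI, and so passed the filter through libraries in which it was high. Its call is therefore no independent support for a rise. Both calls ended in the fit without a filter on low values (adjusted p = 0.0519 and 0.0667) and without either d0 library, at 0.0633 and 0.0791 for FOXD3 and 0.120 and 0.143 for PAX3 without Ctrl d0 and V1PAKI d0. PAX3 also missed the threshold without d4 or d16V of either line, with adjusted p from 0.0503 to 0.0868. The share of all genes called was lower in these fits as well: 9.35% without the filter, 7.95% without Ctrl d0, 19.5% without V1PAKI d0, 22.4% without either d4 library, and 18.6% and 16.6% without Ctrl d16V and V1PAKI d16V.

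The other 5 markers did not pass from d0 to d16. Of these, TFAP2B reached 1 FPKM only in the d16D libraries, so it too entered the fit through them. TFAP2B was at 1.27 (SE 0.45, adjusted p = 0.0625 by limma), ERBB3 at -0.93 (SE 0.35, adjusted p = 0.0757), SNAI2 at 1.17 (adjusted p = 0.163), NGFR at 0.75 (adjusted p = 0.119) and SOX10 at 0.78 (adjusted p = 0.333). TFAP2B passed with a pseudocount of 0.1 (adjusted p = 0.0167), as TPM (0.0220), without the term for line (0.0449) and without Ctrl d16D (1.78, 0.00254) or V1PAKI d16D (0.76, 0.0341). NGFR passed as TPM (adjusted p = 0.0424) and without V1PAKI d0 (1.47, adjusted p = 0.0134), the library where it was high at the start. In Ctrl it was 2.95-fold higher at d16D and 4.43-fold higher at d16V than at d0, and in V1PAKI 1.10-fold lower and 1.11-fold higher. SOX10 and SNAI2 passed without Ctrl d16D (adjusted p = 0.0121 and 0.00527), and ERBB3 without V1PAKI d16D (-1.31, adjusted p = 0.00457). The share of all genes called was 26.7% without Ctrl d16D and 32.3% without V1PAKI d16D.

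**Figure D3:**
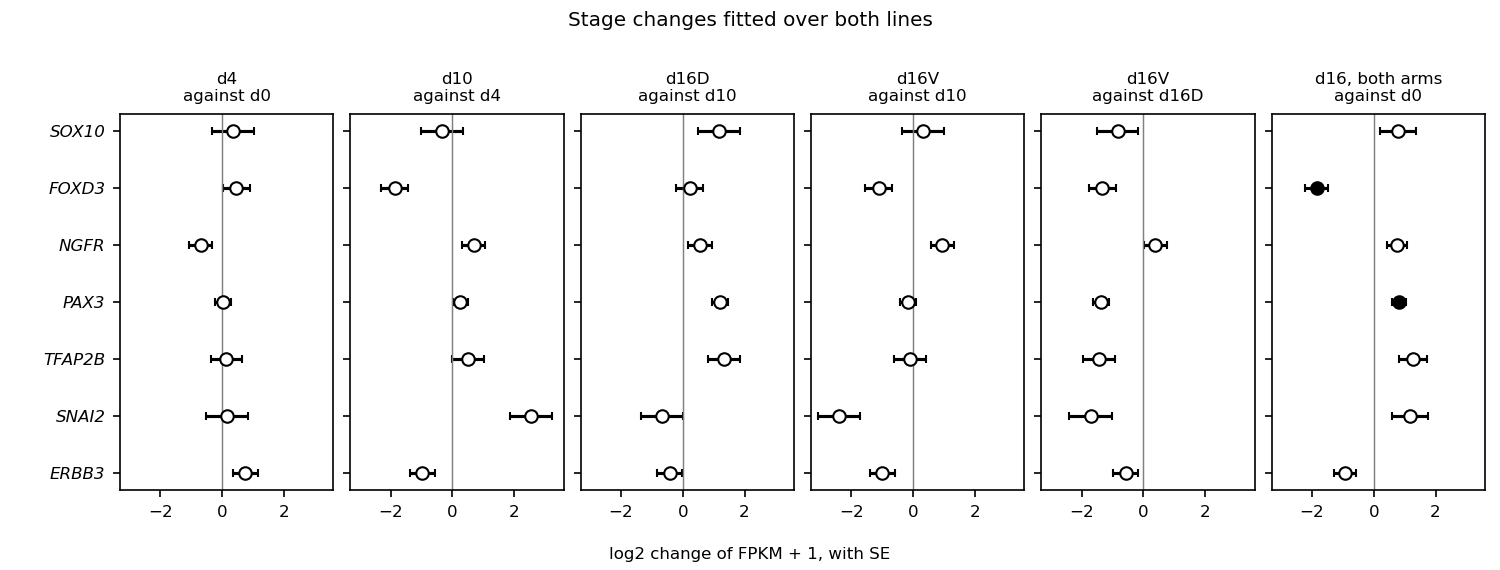
Change of the 7 markers that entered the fit (log2 of FPKM + 1, x axis, with 1 SE) in 6 comparisons of stages fitted by limma over both lines. Filled circles have an adjusted p under 0.05: FOXD3 (-1.85) and PAX3 (0.82) from d0 to d16. PAX3 and TFAP2B entered the fit only through their d16D libraries.

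Step by step, 0 of 7 markers passed in any single change between stages by limma. The share of all genes called was 0.818% from d0 to d4 (0.507% that rose and 0.311% that fell) and 1.44% from d4 to d10 (0.919% and 0.520%, or 1.76% and 0.241% as TPM). It was 0.932% from d10 to d16D (0.551% and 0.380%), 0.811% from d10 to d16V (0.520% and 0.292%) and 0.361% from d16D to d16V (0.196% and 0.165%). Single libraries moved these shares. They ran from 0 (without either d0 library) to 1.22% (without Ctrl d16D) for d0 to d4, and from 0 (without either d4 library or V1PAKI d10) to 2.83% (without Ctrl d16D) for d4 to d10. For d10 to d16D they ran from 0.184% (without Ctrl d10) to 2.43% (without V1PAKI d16D), for d10 to d16V from 0.101% (without Ctrl d16V) to 4.32% (without Ctrl d16D) and between the d16 arms from 0.0317% (without Ctrl d16V) to 0.640% (without Ctrl d16D). At an unadjusted p under 0.05 these comparisons had 1870, 2397, 2677, 3140 and 842 genes. From d4 to d10, when the cells were in neural medium and attached from day 7, FOXD3 was at -1.87 (SE 0.44, adjusted p = 0.0924). It was 2.80-fold lower in Ctrl and 9.32-fold lower in V1PAKI. SNAI2 was at 2.56 (SE 0.68, adjusted p = 0.125), 27.2-fold higher in Ctrl and 13.7-fold higher in V1PAKI. Its value passed when either d16D library was left out (adjusted p = 0.0157 without Ctrl, 0.0158 without V1PAKI), where 2.83% and 2.81% of all genes were called. ERBB3 was at -0.97 (SE 0.40, adjusted p = 0.308).

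From d10 to d16D the lines differed in SOX10, SNAI2 and TFAP2B more than in PAX3. PAX3 and TFAP2B entered the fit only through their d16D libraries. PAX3 was at 1.20 (SE 0.26, adjusted p = 0.0881 by limma), 6.06-fold higher in Ctrl and 8.89-fold higher in V1PAKI. TFAP2B was at 1.33 (SE 0.51, adjusted p = 0.257), 1.57-fold higher in Ctrl and 14.4-fold in V1PAKI. SOX10 was at 1.17 (SE 0.68, adjusted p = 0.435): 0.512 and 0.557 FPKM in Ctrl, and 7.99-fold higher in V1PAKI. Without Ctrl d16D the values of SOX10, PAX3 and TFAP2B passed, at 2.52, 1.59 and 2.35 (adjusted p = 0.0475, 0.0344 and 0.0296; 0.596% of all genes were called), each then resting on the single V1PAKI library for d16D. Without V1PAKI d16D the value of SOX10 was -0.19, and that of SNAI2 passed at -2.05 (adjusted p = 0.0438), with 2.43% of all genes called.

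Between the d16 arms no marker passed, but PAX3, PAX7, TFAP2B, SNAI2 and FOXD3 had lower values at d16V than at d16D in both lines. Here too, PAX3 and TFAP2B had entered the fit only through their d16D libraries. PAX3 was 7.66-fold lower at d16V than at d16D in Ctrl and 42.6-fold lower in V1PAKI (-1.38, SE 0.26, adjusted p = 0.116 by limma). TFAP2B was at -1.43 (SE 0.51, adjusted p = 0.720), 1.30-fold lower in Ctrl and 45.1-fold lower in V1PAKI. SNAI2 was at -1.71 (SE 0.68, adjusted p = 0.844), 1.21-fold and 98.5-fold lower, and FOXD3 at -1.33 (SE 0.44, adjusted p = 0.638), 2.11-fold and 23.6-fold lower. SOX10 and ERBB3 were higher at d16V in Ctrl (3.19-fold and 1.41-fold) and lower in V1PAKI (10.7-fold and 3.97-fold). PAX3, TFAP2B and SNAI2 passed without Ctrl d16D (adjusted p = 0.0272, 0.0267 and 0.0267), with 0.640% of all genes called. From d10 to d16V SNAI2 was at -2.39 (SE 0.68, adjusted p = 0.137), 9.38-fold lower in Ctrl and 46.8-fold lower in V1PAKI, and it passed without Ctrl d16D (adjusted p = 0.0118) or V1PAKI d16D (0.0120), where 4.32% and 4.19% of all genes were called.

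Across the 10 libraries the markers fell into sets. PAX3, PAX7 and TFAP2B varied together, with Pearson's r of log2(FPKM + 1) at 0.965 for PAX3 and PAX7, 0.941 for PAX3 and TFAP2B and 0.935 for PAX7 and TFAP2B. Without V1PAKI d16D these were 0.902, 0.784 and 0.821 over 9 libraries. FOXD3 and ERBB3 formed the other set, at 0.907 with and without that library, and both ran against NGFR (-0.586 and -0.661). SOX10 joined the first set through 1 library: its r with TFAP2B was 0.811 over 10 libraries and -0.112 over 9, and with PAX3 0.713 and -0.363. The libraries share lines, stages and possibly cultures, so these values describe the table and carry no p.

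**Figure D4:**
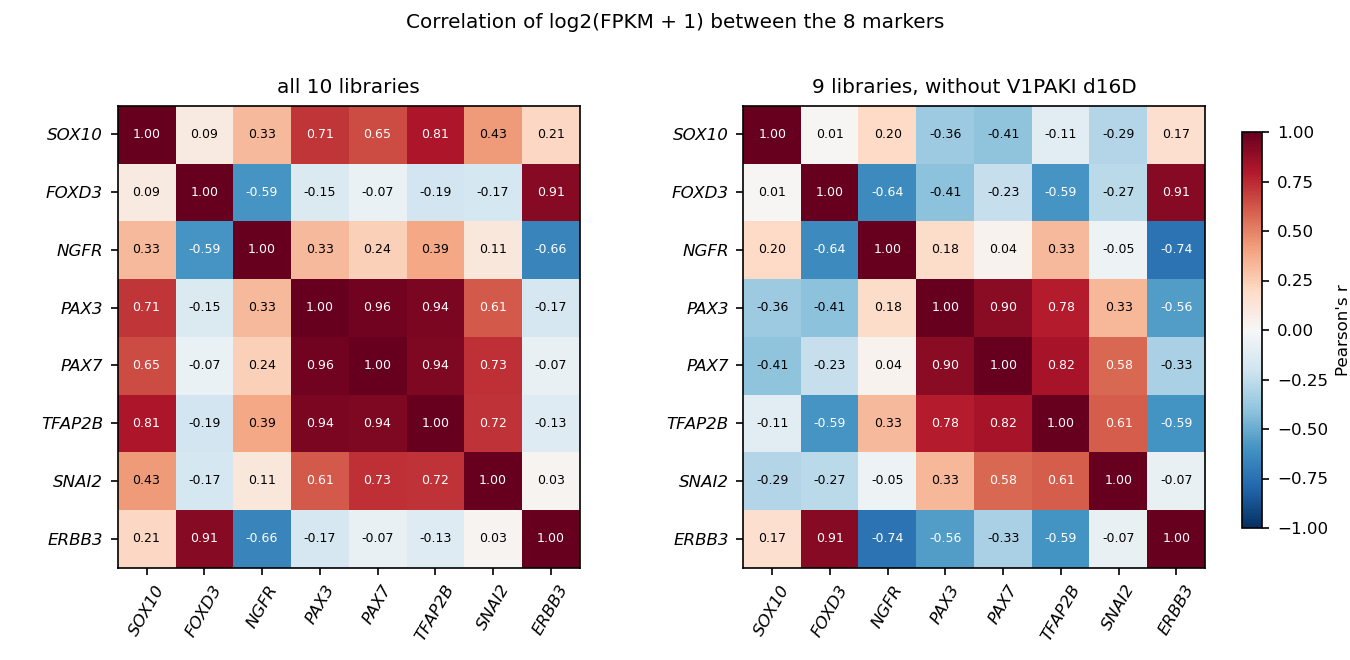
Pearson's r between the 8 markers (rows and columns) over log2(FPKM + 1) in all 10 libraries (left) and in the 9 libraries other than V1PAKI d16D (right), on a colour scale from -1 to 1. PAX3, PAX7 and TFAP2B stay at 0.78 or above in both panels and FOXD3 with ERBB3 at 0.91, while SOX10 with TFAP2B goes from 0.81 to -0.11.

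Among all genes tested, the 3 most like each marker over the 10 libraries were picked by the same r. For FOXD3 they were OGDHL (0.978), UNC5B (0.973) and PPIF (0.972), and for ERBB3 IFITM1 (0.980), ARHGEF35 (0.975) and PPP1R3B (0.975). PAX3 was nearest AC116366.3 (0.988), PPBP (0.978) and PRDM12 (0.976), and TFAP2B nearest UGT2B11 (0.996), FZD10 (0.989) and PLG (0.988). SNAI2 was nearest SLN (0.994), RGS4 (0.988) and VTCN1 (0.987), and NGFR nearest SPIN2B (0.965), DKKL1 (0.957) and BCAS3 (0.946). All of these stayed at 0.92 or above without V1PAKI d16D. Those of SOX10 did not: GLUD1 went from 0.888 to 0.102, FTCD from 0.866 to 0.104 and CA4 from 0.864 to 0.385.

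The receptors were read beside their partners. Of the 12 other neuregulin ligands and ERBB receptors in the table, 0 of the 7 counted differed by the bound between the lines at d16D (median 0.073). Of all genes 5.50% were higher and 3.46% lower. ERBB2, the receptor that ERBB3 needs in order to signal, had 42.0 FPKM (Ctrl) and 67.1 FPKM (V1PAKI) at d0, against 15.97 and 11.5 at d16D and 31.5 and 29.6 at d16V. It fell from d0 to d16 (-1.34, SE 0.24, limma adjusted p = 0.00624). NRG1, the neuregulin that guides Schwann cell precursors, did not exceed 1.59 FPKM but rose from d0 to d16 (0.89, SE 0.18, adjusted p = 0.00961), as did the receptor ERBB4 (1.06, SE 0.28, adjusted p = 0.0238). In all, 2 of 9 tested genes of the list rose and 2 fell from d0 to d16, beside 17.4% and 15.1% of all genes. ERBB4 reached 1 FPKM only in Ctrl d16V and V1PAKI d16D, so it entered the fit through d16 libraries.

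From d0 to d16, beside 17.4% and 15.1% of all genes, 5 of 9 tested genes of neurotrophins and their receptors rose and 0 fell. They included the neurotrophin receptor NTRK2 (1.43, SE 0.19, adjusted p = 0.00225 by limma), the ligand NTF3 (1.07, SE 0.21, adjusted p = 0.00897), SORCS2, a sorting receptor that pairs with NGFR (2.68, SE 0.18, adjusted p = 0.000252), and MAGED1, which binds the inner part of NGFR (1.65, SE 0.24, adjusted p = 0.00300). NTRK2 reached 1 FPKM in d16 libraries only, so it entered the fit through them. At d16D 0 of 9 genes of the list passed the bound between the lines, where 5.50% of all genes were higher and 3.46% lower. BEX3, another NGFR binding protein, was the gene of this list that differed at d0, with 62.5 FPKM for Ctrl and 267 for V1PAKI, the stage and direction of the NGFR difference.

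Of the other crest specifiers 3 of 17 were higher in V1PAKI at d16D and 1 lower, with a median of 0.32. The background there was 5.50% of all genes higher and 3.46% lower. ETS1 was at 7.14 against 1.17 FPKM, whereas SOX9, which acts before SOX10 in the crest and also marks neural progenitors, was at 11.2 FPKM in V1PAKI and 41.1 in Ctrl. SOX9 rose from d0 to d16 (2.25, SE 0.49, limma adjusted p = 0.0130). Of the 17 specifiers, 7 rose and 2 fell, beside 17.4% and 15.1% of all genes. Of neural plate border genes 7 of 16 were higher at d16D and 2 lower (median 0.84). MSX1 stood at 20.1 against 5.64 FPKM and BMP4 at 17.6 against 2.93. ZIC1, at 13.1 against 27.1, fell short of the bound (-0.99) and is not among the 2 lower ones. Genes of crest adhesion and migration had 4 of 17 higher and 0 lower (median 0.75). The cadherin CDH1, also in the epithelium list, differed most, at 26.8 against 5.11 FPKM (2.18 on the log2 scale). CXCR4, also in the endoderm list, was at 16.2 against 7.36 FPKM (1.04). The count is therefore not specific to migrating crest cells. Of relatives in the same SOX, FOXD, PAX, AP-2 and Snail families 2 of 10 were higher and 2 lower (median -0.0048).

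Of the genes of Schwann cell precursors and glia, 3 of 13 were higher in V1PAKI at d16D and 1 lower, while the median was -0.44. The higher ones, named after their values were seen, were PMP22, a myelin protein (4.26 against 0.924 FPKM), TFAP2A, an AP-2 factor (4.17 against 1.19), and S100B, a calcium binding protein of glia (6.48-fold above the 0.247 FPKM of Ctrl). The lower one was FABP7, a lipid binding protein of glial and neural progenitors, at 8.50 FPKM against 43.5 in Ctrl. Over all genes, 5.50% were higher in V1PAKI at d16D and 3.46% lower. TFAP2A is also in the lists of border genes, crest specifiers, family relatives and epithelium, so it is counted in each. Of the 20 genes 6 stayed under 1 FPKM in every library, among them CDH19, PMP2, EGR2, DHH and MAL, named here after their values were seen. The highest CDH19, a cadherin of Schwann cell precursors, was 0.174 FPKM, in V1PAKI d16D, and DHH, their hedgehog ligand, did not exceed 0.0984. Of melanoblast genes 0 of 7 differed by the bound at d16D (median 0.17). Among sensory and sympathetic neuron genes 4 of 10 were higher (median 0.39), among them HAND2 at 8.30 FPKM against 1.00.

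The arm in which PAX3 and PAX7 were highest was also the arm of roof plate genes. From d10 to d16D 5 of 13 genes of the roof plate and dorsal neural tube rose and 0 fell, among them WNT1 (2.20, SE 0.33, adjusted p = 0.0314 by limma), RSPO1 (2.42, SE 0.30, adjusted p = 0.0156) and LMX1A (1.40, SE 0.23, adjusted p = 0.0411). Of all genes 0.551% rose and 0.380% fell from d10 to d16D. LMX1A and DMRT3, another of the 5, reached 1 FPKM in the d16D libraries only, and WNT1 in d16 libraries only. They thus entered the fit through libraries in which they were high, and their calls are no independent support for a rise. RSPO1 was lower again at d16V than at d16D (-2.81, SE 0.30, limma adjusted p = 0.0133). At d16D 6 of 14 were higher in V1PAKI and 0 lower (median 0.90), with WNT1 at 8.59 against 3.70 FPKM and WNT3A at 5.42 against 1.29. Genes of muscle progenitors, which share PAX3 and PAX7, were low: 10 of 15 stayed under 1 FPKM in all libraries. At d16D 0 of 5 were higher in V1PAKI and 1 lower. Both counts at d16D stood beside 5.50% of all genes higher and 3.46% lower.

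**Figure D5:**
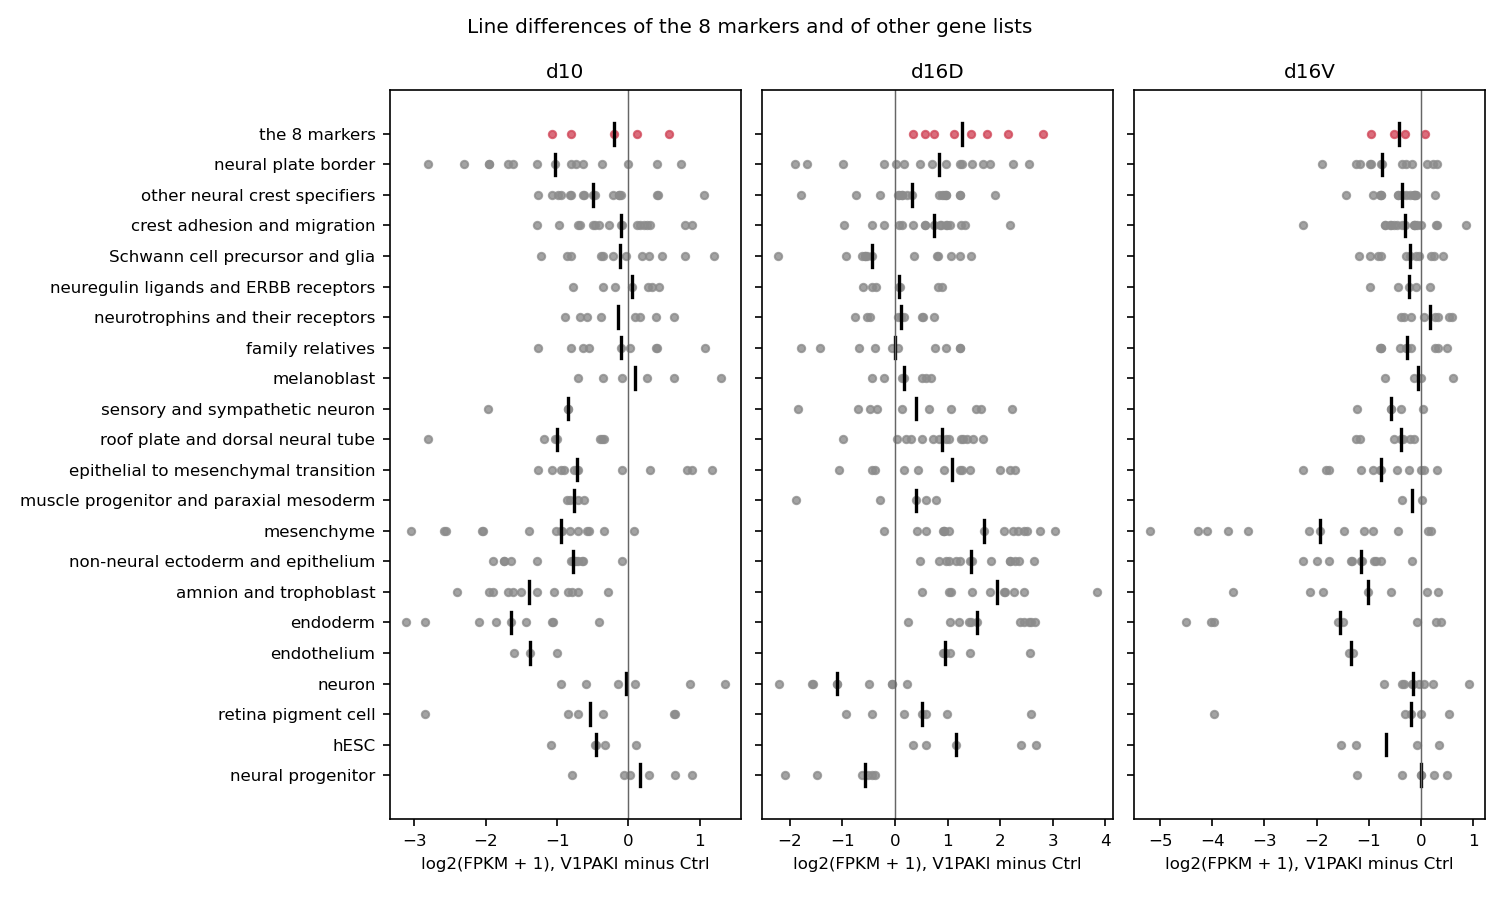
Difference between the lines (V1PAKI minus Ctrl, log2(FPKM + 1), x axis) at d10, d16D and d16V for the 8 markers (red) and for genes of 21 other lists (grey), 1 point per gene that reached 1 FPKM in one of the lines; black bars are medians. At d16D the median of the markers is 1.28. It lies below those of epithelium (1.44), endoderm (1.56), mesenchyme (1.69) and amnion and trophoblast (1.93). It lies above those of the other lists, among them neural progenitor (-0.57), muscle progenitor (0.39), endothelium (0.96) and stem cell (1.15).

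Genes of tissues outside the neural lineage moved with the markers at d16D, and their part in the result was not tested. Of all genes 5.50% were higher in V1PAKI and 3.46% lower. The mesenchyme list, 9 of 15 higher and 0 lower in V1PAKI (median 1.69), summed to 1240 FPKM against 218 in Ctrl. Epithelium had 11 of 14 higher (median 1.44, 432 against 91.2 FPKM), amnion and trophoblast 9 of 10 (median 1.93, 255 against 37.3), endoderm 10 of 11 (median 1.56, 2400 against 425) and endothelium 3 of 7 (median 0.96, 40.4 against 6.59), with 0 lower in each. Of stem cell genes 3 of 5 were higher (median 1.15), whereas 5 of 9 neuron genes and 2 of 6 neural progenitor genes were lower and 0 higher (medians -1.10 and -0.57).

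At d10 and d16V the sums of the mesenchyme, epithelium, amnion and trophoblast, endoderm and endothelium lists were lower in V1PAKI. Mesenchyme summed to 932 FPKM in Ctrl and 247 in V1PAKI at d10, and to 354 and 35.3 at d16V; at d10 7 of 15 were lower in V1PAKI and at d16V 9 of 13, with 0 higher. Of all genes 7.45% were lower in V1PAKI at d10 and 2.49% at d16V. Amnion and trophoblast summed to 530 and 160 at d10, and endoderm to 230 and 39.4. The neuron sum was lower in V1PAKI at these stages too (46.5 and 36.8 FPKM at d10, 166 and 144 at d16V). SNAI2, FOXD3, ERBB3, TFAP2B and PAX7 were higher at d10, d16D and d16V in the line with the higher mesenchyme sum. TFAP2B and PAX7 were under 1 FPKM in both lines at d10 and d16V, and FOXD3 at d16V. SOX10 and PAX3 were higher at d16D and d16V in the line with the higher mesenchyme sum and lower in it at d10. At d10 SOX10 had 0.512 FPKM in Ctrl against 1.25 in V1PAKI, and PAX3 had 0.202 against 0.309. NGFR was higher in V1PAKI at all 3 of these stages. The epithelial to mesenchymal transition list mixes genes of the epithelial and the mesenchymal side, and had 6 of 12 higher and 1 lower at d16D (median 1.08). Its higher genes included CDH1 (2.18), EPCAM (2.27) and ESRP1 (1.43), which are also in the epithelium list, ESRP2 (1.27) and FN1 (2.00). The lower one was ZEB1 (-1.07), and CDH2 (-0.44) and VIM (-0.39) were below 0. The count is therefore not a measure of a transition. The background at d16D was 5.50% of all genes higher and 3.46% lower.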

How the data were processed

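RNA was sequenced from 10 libraries, 1 per line and stage. The authors deposited FPKM values, made with cutadapt 1.18, HISAT2 2.1.0 and Cufflinks on GRCh38, per the submitters' processing notes; the sources used here do not give the annotation, any filter or the use of strand. All 10 columns were matched to samples by name. Overlaps and coordinates came from GENCODE 29 (GRCh38).

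Values were analysed as log2(FPKM + 1), which understates changes of low genes. limma 3.58.1 in R 4.3.3 was run on the 15779 genes that reached 1 FPKM in 2 or more libraries. The model had terms for stage and line, and eBayes used an intensity trend; 4 degrees of freedom were residual, or 7.77 after moderation. Tests were two-sided, adjusted by Benjamini-Hochberg over all genes, with a threshold of 0.05. The comparison of the lines was tried on simulated data with independent noise and a line change that was the same at all stages. The stage comparisons were not tried in this way. Differences at a stage had no test. A value of 0 may be a failed estimate.

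The members, the 21 gene lists (248 genes, 246 in the table) and the tests were chosen with earlier results of these data known. Named were all members, list genes that passed in a comparison, up to 4 genes per list with the highest FPKM, genes most like a member and genes overlapping one; others are marked. Results of 2 list genes are not reported here. Alternatives were pseudocounts, filters, TPM, median-of-ratios scaling, no intensity trend, no genotype block, d16 arms averaged and each library left out.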

Additional observations from a re-analysis of the deposited data

Results flagged for a closer look

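SNAI2 differed between the lines in opposite directions at 2 stages: V1PAKI minus Ctrl was 2.14 on the log2(FPKM + 1) scale at d16D and -1.07 at d10. With 1 library per line and stage, this difference was not tested.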

How the results depend on the processing

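The marker counts between the lines at d0, d4 and d16D, and the counts over the stages and from d0 to d4, stayed within 1.5 times under each alternative run. From d0 to d16 the count of 2 markers was 0 with no filter, 1 with a filter at 5 FPKM and 4 as TPM, and 0 to 5 with a library left out (5 without Ctrl d16D). The share of all genes called there was 32.4%, and 9.35%, 35.6% and 34.8% under the first 3 of these settings and 7.95% to 41.7% with a library left out. From d4 to d10 and from d10 to d16V the marker count was 0 to 1, and from d10 to d16D and between the d16 arms 0 to 3, with 1 library left out. At d10, 1 marker was higher with a pseudocount of 0.1 and 1 as TPM, and 2 were lower with a pseudocount of 0.1. At d16V, 1 was lower with a pseudocount of 0.1 and 1 as TPM. Signs turned over the stages for TFAP2B with a pseudocount of 0.1 (-0.21) and as TPM (-0.044), and for SNAI2 with a pseudocount of 5 (0.024). With a library left out, values whose sign turned ranged as follows. Over the stages they ran from -0.072 to 0.37 for ERBB3, -0.069 to 0.41 for FOXD3, -0.021 to 0.20 for PAX3, -0.60 to 0.21 for SNAI2 and -0.28 to 0.34 for TFAP2B. From d0 to d4 they ran from -1.42 to 0.034 for NGFR, -0.083 to 0.16 for PAX3, -0.0038 to 0.31 for SNAI2, -0.086 to 0.81 for SOX10 and -0.015 to 0.30 for TFAP2B. For SOX10 they were -0.78 to 0.12 from d4 to d10, -0.19 to 2.52 from d10 to d16D, -0.41 to 1.06 from d10 to d16V and -2.19 to 0.52 between the d16 arms. From d10 to d16D they were -1.19 to 0.34 for ERBB3, -0.38 to 0.83 for FOXD3 and -2.05 to 0.69 for SNAI2. TFAP2B ran from -0.64 to 0.43 from d10 to d16V, and ERBB3 from -1.33 to 0.19 between the d16 arms. As TPM the median change of all genes was 0.28 from d0 to d16, 0.12 from d4 to d10, 0.10 from d10 to d16D and 0.14 from d10 to d16V, against 0.066, -0.011, 0.028 and 0.036. No paired analysis was possible because each group holds 1 library, so there is no second replicate number to block on. Stage and line were terms of the fit, so the lines were compared within stages; without the term for line 3 markers passed from d0 to d16. A lone library left at a stage is assumed to vary like the others. Without repeated cultures or known depth, neither the spread of a culture nor the counting error of the low markers could be measured.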
